A study of Phyllostachys violascens with 16 samples.

Results

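Sucrose synthase is an enzyme that splits sucrose with UDP into UDP-glucose and fructose, in a reaction that can also run backwards. In growing sink tissues it is a main way by which imported sucrose enters metabolism, beside hydrolysis by invertases. Its UDP-glucose feeds the synthesis of cellulose, callose and other wall sugars, and the enzyme is also known from phloem and from tissues short of oxygen. Described here are 2 genes of Lei bamboo (Phyllostachys violascens) with this annotation, PH02Gene02657 and PH02Gene04423, out of 50936 genes in the table. They were chosen by their FPKM over all 16 libraries, as the most abundant genes carrying the description, with the course of that FPKM over storage already known. Their levels and changes over storage are therefore a description, without a test. Averaged over all libraries, PH02Gene02657 was at 288 FPKM, a level corrected for transcript length and sequencing depth, and PH02Gene04423 at 83.7 FPKM. Just below them were PH02Gene26491, described as Susy6 and tied to sucrose synthase by its KEGG entry alone, at 51.1 FPKM, and PH02Gene10600, described as sucrose synthase 3, at 32.8 FPKM.

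The libraries were made from total RNA of the middle part of young spring shoots. There were 4 biological replicates at 0, 2, 6 and 20 days of storage, called 0d, 2d, 6d and 20d. For each replicate 30 shoots were kept together at 4 °C in polyethylene bags, and a library pooled segments of 6 shoots. No group was kept at another temperature, so that cold and time since harvest cannot be told apart. In such bulk tissue, fewer cells of a type and less RNA per cell cannot be told apart either.

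The deposited counts summed to between 51.7 M and 64.9 M per library. FPKM is per length, so that levels of different genes can be set side by side. Changes between times come from counts scaled by TMM, a scaling that assumes most genes do not change, and are given as log2 differences with their standard error (SE). Genes other than the 2 members were called at an edgeR quasi-likelihood adjusted p below 0.05, if the log2 change was also 1 or more in size, among 24944 tested genes. A description names the closest described protein and shows neither enzyme activity nor isoform.

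PH02Gene02657 lies on scaffold 6, from 14116947 to 14123814 on the minus strand, and PH02Gene04423 on scaffold 15, from 33180557 to 33187915 on the plus strand. These are coordinates of the deposited table, whose genome build is not given in the sources used here. Both carry the same KEGG entry and the same GO term, response to carbon dioxide. Their description, sucrose synthase of the bamboo Bambusa oldhamii, is shared by PH02Gene09591 and PH02Gene46034. How reads that fit several such genes were assigned is not given in the sources used here, so that the level of each of these 4 genes is uncertain to that extent.

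PH02Gene02657 was highest at 2d. Its FPKM in replicates 1 to 4 was 243, 244, 245 and 247 at 0d, and 667, 660, 671 and 674 at 2d. It was 218, 218, 217 and 214 at 6d, and 23.4, 23.5, 21.8 and 23.8 at 20d. The libraries of the 4 times did not overlap, and 2d stood above 0d, 0d above 6d and 6d above 20d. The means were 245 ± 1.52, 668 ± 6.10, 217 ± 1.97 and 23.2 ± 0.898 FPKM at 0d, 2d, 6d and 20d (SD, n = 4). Among all genes of a library it ranked 161 to 165, 37 to 38, 188 to 192 and 5066 to 5549 at 0d, 2d, 6d and 20d. It was thus among the most abundant transcripts of the shoot until 6d and no longer at 20d.

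PH02Gene04423 showed no such peak in FPKM. In replicates 1 to 4 it was at 128, 127, 127 and 132 FPKM at 0d, and at 113, 115, 117 and 115 at 2d. It was at 81.2, 83.8, 81.1 and 83.1 FPKM at 6d, and at 7.30, 8.10, 8.91 and 8.70 at 20d. Each later time was lower than the one before, with no overlap between libraries. The means were 129 ± 2.50, 115 ± 1.71, 82.3 ± 1.34 and 8.25 ± 0.722 FPKM at 0d, 2d, 6d and 20d (SD, n = 4). Its rank was 482 to 519, 609 to 648, 978 to 1032 and 11091 to 12351 at 0d, 2d, 6d and 20d.

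**Figure D1:**
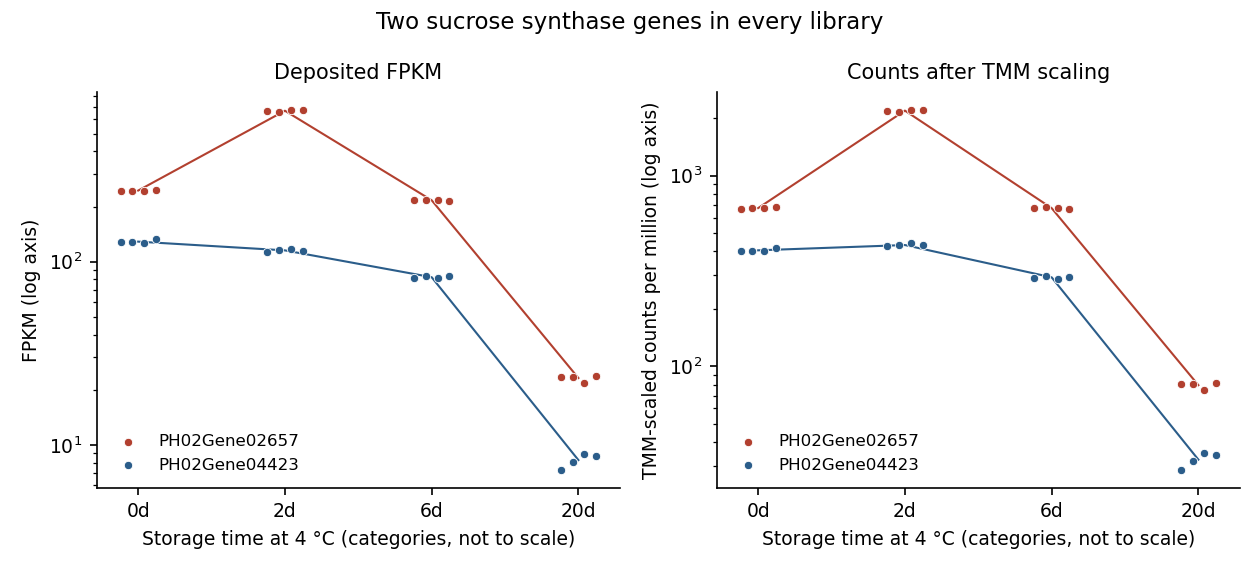
Level of PH02Gene02657 (red) and PH02Gene04423 (blue) in each of the 16 libraries, as deposited FPKM (left) and as TMM-scaled CPM (right), both on log axes. Points are libraries and lines join the means of 4. PH02Gene02657 peaks at 2d, at 668 FPKM, and both genes are lowest at 20d, at 23.2 and 8.25 FPKM.

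The scaling decides the small steps. TMM factors lay between 1.14 and 1.144 at 0d and between 0.9115 and 1.003 at the stored times, so that stored libraries stand relatively higher in scaled counts than in FPKM. In TMM-scaled counts at equal library size (CPM) PH02Gene02657 was at 675.1 ± 6.91 at 6d and 675.5 ± 4.10 at 0d, and these libraries overlapped. PH02Gene04423 was at 432.1 ± 6.26 CPM at 2d and 405.4 ± 8.06 CPM at 0d, the opposite order to FPKM. Whether PH02Gene02657 was lower at 6d than at 0d, and which way PH02Gene04423 differed at 2d, thus depends on the scaling. The 2d peak and the low 20d level stood in both units.

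At 2d against 0d the log2 difference of PH02Gene02657 was 1.70 (SE 0.021), a ratio of 3.25 in scaled counts and of 2.73 in mean FPKM. For PH02Gene04423 it was 0.09 (SE 0.035). Of all tested genes 13.1% were called higher and 18.1% lower at 2d, and 1322 had a larger log2 difference than PH02Gene02657. At 6d against 0d the log2 differences were 0.00 (SE 0.020) for PH02Gene02657 and -0.47 (SE 0.036) for PH02Gene04423, while 16.8% of tested genes were called higher and 21.6% lower.

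At 20d against 0d both genes were much lower. The log2 difference was -3.09 (SE 0.023) for PH02Gene02657, which is 8.50-fold lower in scaled counts and 10.6-fold lower in mean FPKM. For PH02Gene04423 it was -3.65 (SE 0.041), 12.6-fold lower in scaled counts and 15.6-fold lower in mean FPKM. Of all tested genes 19.5% were called higher and 24.5% lower, and 1617 and 1196 genes had a lower log2 difference than PH02Gene02657 and PH02Gene04423.

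Between stored times the 2 genes differed early and were close late. At 6d against 2d the log2 difference was -1.70 (SE 0.021) for PH02Gene02657 and -0.56 (SE 0.036) for PH02Gene04423, with 6.94% of tested genes called higher and 8.14% lower. At 20d against 6d it was -3.09 (SE 0.023) for PH02Gene02657 and -3.18 (SE 0.041) for PH02Gene04423, with 12.7% called higher and 14.2% lower. Most of the lower level of both genes at 20d thus arose after 6d. The comparisons of 2d, 6d and 20d with 0d share the 0d libraries.

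Replicates of both genes lay close together. The coefficient of variation of PH02Gene02657 in FPKM was 0.623%, 0.914%, 0.910% and 3.88% at 0d, 2d, 6d and 20d. Counting alone, with 4 deposited counts taken as 1 fragment, would give 0.934%, 0.590%, 1.02% and 3.08%. For PH02Gene04423 the measured values were 1.94%, 1.48%, 1.63% and 8.75%, and counting would give 1.21%, 1.33%, 1.54% and 4.85%. The measured spread stood above that of counting for PH02Gene04423 at all 4 times and for PH02Gene02657 at 2d and 20d. The counting values rest on the assumed 4 counts per fragment, and would be smaller with fewer counts per fragment.

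The ratio of the 2 genes within a library does not depend on library scaling. FPKM of PH02Gene02657 divided by that of PH02Gene04423 was 1.90 ± 0.0286, 5.79 ± 0.0901, 2.63 ± 0.0525 and 2.83 ± 0.318 at 0d, 2d, 6d and 20d (SD, n = 4). Single libraries ran from 1.86 to 1.93, 5.71 to 5.88, 2.57 to 2.68 and 2.45 to 3.21 at 0d, 2d, 6d and 20d. The 2d ratios stood above all others and the 0d ratios below all others, while those of 6d and 20d overlapped.

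The 2 genes made up most of the transcripts with this description until 6d. The FPKM of all 15 genes described as sucrose synthase summed to 526 ± 7.33, 863 ± 6.74, 383 ± 5.27 and 72.7 ± 1.16 at 0d, 2d, 6d and 20d (SD, n = 4). PH02Gene02657 held 46.5% ± 0.452, 77.4% ± 0.333, 56.5% ± 0.420 and 31.9% ± 1.1 of this sum at 0d, 2d, 6d and 20d. PH02Gene04423 held 24.5% ± 0.135, 13.4% ± 0.154, 21.5% ± 0.373 and 11.4% ± 0.917. Both together held 71.0%, 90.8%, 78.0% and 43.2% at 0d, 2d, 6d and 20d. Among all 21 genes with the KEGG entry of sucrose synthase, a set chosen after the data were seen, both together held 57.4%, 87.4%, 68.4% and 31.6%.

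**Figure D2:**
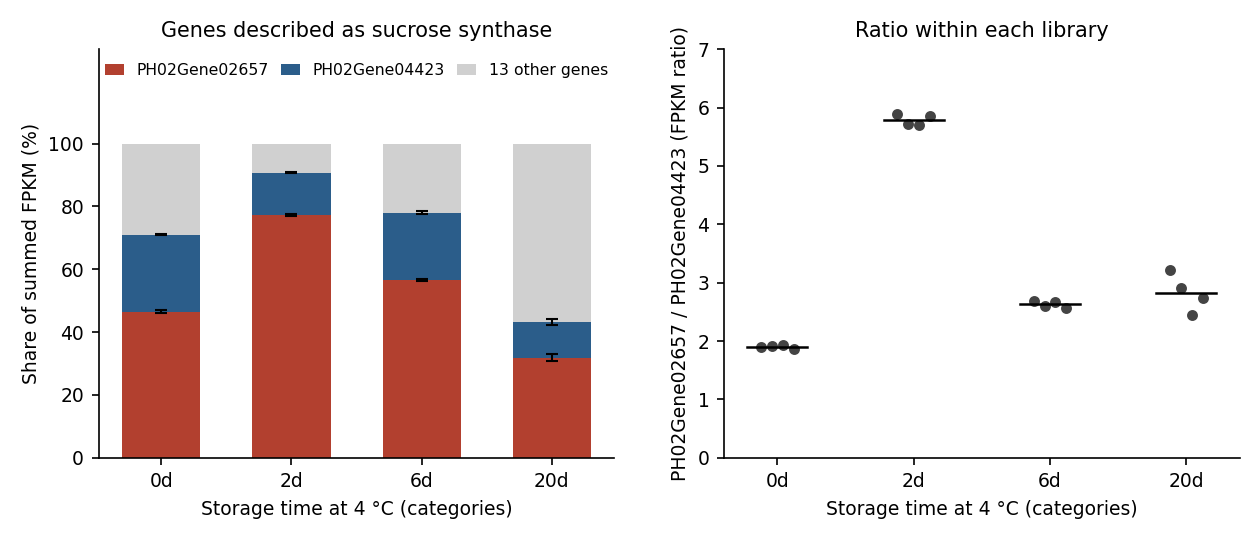
Left, share of the summed FPKM of the 15 genes described as sucrose synthase that PH02Gene02657 (red), PH02Gene04423 (blue) and the 13 other genes (grey) held, as means of 4 libraries with SD bars at the upper edge of red (its share) and of blue (both together). Right, FPKM of PH02Gene02657 over that of PH02Gene04423 in each library (points) with the mean (line). Both genes together hold 90.8% at 2d and 43.2% at 20d, and the ratio is highest at 2d, at 5.79.

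Of the other 13 genes described as sucrose synthase 8 reached a mean FPKM of 1 and were tested. At 2d 5 of the 8 were called lower, at 6d 6 and at 20d 7, beside 18.1%, 21.6% and 24.5% of all tested genes. Their median log2 change was -1.42 at 2d, -1.31 at 6d and -1.54 at 20d, where that of all tested genes was -0.004, -0.024 and 0.016. In edgeR 0 were called higher at these times, as in DESeq2 and in limma on log2(FPKM + 1), and 2, 2 and 1 had a higher level at an unadjusted p under 0.05. The filter itself favours such calls, because a gene can reach a mean FPKM of 1 through its 0d level. PH02Gene27917 was the clearest case, at 5.70 ± 0.277 FPKM at 0d and 0.851, 0.802 and 0.657 FPKM at 2d, 6d and 20d. PH02Gene47723 also reached the limit only through 0d. It was at 2.92 ± 0.426 FPKM there and 0.88, 1.02 and 1.02 FPKM at 2d, 6d and 20d. A limit of 5 does not remove this, since PH02Gene46034 and PH02Gene19719 reach it only through 0d. The counts and medians over these genes are therefore a description.

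The other pair with the members' description differed from each other. PH02Gene46034 was at 60.5 ± 1.75, 6.04 ± 0.621, 4.73 ± 0.187 and 0.289 ± 0.0527 FPKM at 0d, 2d, 6d and 20d. It fell at 2d against 0d by 3.07 on the log2 scale (SE 0.06, edgeR adjusted p = 2.99e-23) and its log2 change at 20d against 0d was -7.39 (SE 0.08). PH02Gene09591 was at 25.4 ± 0.717, 29.8 ± 0.137, 24.7 ± 1.38 and 2.27 ± 0.111 FPKM at these times. It was called lower at 20d, with a log2 change of -3.17 (SE 0.04, edgeR adjusted p = 2.25e-27) against 0d and of -3.30 (SE 0.04) against 6d. All 4 genes of this description were at less than 10% of their 0d FPKM at 20d. That limit holds in FPKM only, since the ratio of 20d to 0d in TMM-scaled counts was 0.118 for PH02Gene02657.

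PH02Gene10600, described after rice sucrose synthase 3, had the smallest fold between its highest and lowest mean FPKM among the 8 tested genes. It was at 27.7 ± 0.768, 32.5 ± 0.952, 42.2 ± 0.748 and 28.7 ± 0.795 FPKM at 0d, 2d, 6d and 20d, and no comparison reached the log2 limit of 1. At 20d it stood above PH02Gene02657, at 23.2 FPKM, and PH02Gene04423, at 8.25 FPKM. The 5 tested genes described as sucrose synthase 7 stood below it at each time. The highest of them, PH02Gene19719, was at 15.8 ± 0.783, 4.02 ± 0.476, 5.38 ± 0.469 and 4.16 ± 0.163 FPKM at 0d, 2d, 6d and 20d, and fell in all 3 comparisons with 0d. PH02Gene27917, PH02Gene29429 and PH02Gene47723 also fell in each of these, with log2 changes between -2.80 and -1.2. Since PH02Gene27917 and PH02Gene47723 were tested only through their 0d level, their calls are a description. For PH02Gene47723 the calls at 6d and 20d ended in limma on log2(FPKM + 1), at -0.96 and -0.95. PH02Gene47722 fell at 6d and at 20d by 1.15 on the log2 scale, and its change at 2d was -0.87. In limma on log2(FPKM + 5), which shrinks changes at such low levels, every call of these 4 genes ended. There the changes at 2d, 6d and 20d were -0.87, -0.88 and -0.92 for PH02Gene27917, -0.74, -0.69 and -0.78 for PH02Gene29429, and -0.43, -0.39 and -0.39 for PH02Gene47723. For PH02Gene47722 they were -0.52 at 6d and -0.56 at 20d, and the calls of PH02Gene19719 held.

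Of the 5 untested genes so described, PH02Gene30165 and PH02Gene43881 had 0 counts in all libraries. PH02Gene10704, described as sucrose synthase 4, was at 0.0986 ± 0.197 FPKM at 20d and 1.84 ± 0.561 FPKM at 0d. PH02Gene51360 and PH02Gene09572 averaged 0.207 and 0.0228 FPKM over all libraries. A further 3 tested genes with the KEGG entry but other names are given after their values were seen. PH02Gene26491, described as Susy6, was at 114 ± 1.79, 28.3 ± 0.695, 44.3 ± 0.741 and 18.4 ± 0.461 FPKM at 0d, 2d, 6d and 20d, and fell in all 3 comparisons with 0d. It was thus near PH02Gene04423, at 129 FPKM, at 0d and well below it at 2d. PH02Gene51127, described as Susy7, fell at 2d and 20d against 0d, by 1.24 and 1.56 on the log2 scale, and both calls ended in limma on log2(FPKM + 5), at -0.62 and -0.72. PH02Gene48441, also described as Susy6, was at 4.86 ± 0.469 FPKM at 6d and 1.98 ± 0.373 FPKM at 2d, a log2 change of 1.21 that ended as a call in limma on log2(FPKM + 1), at 0.98.

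**Figure D3:**
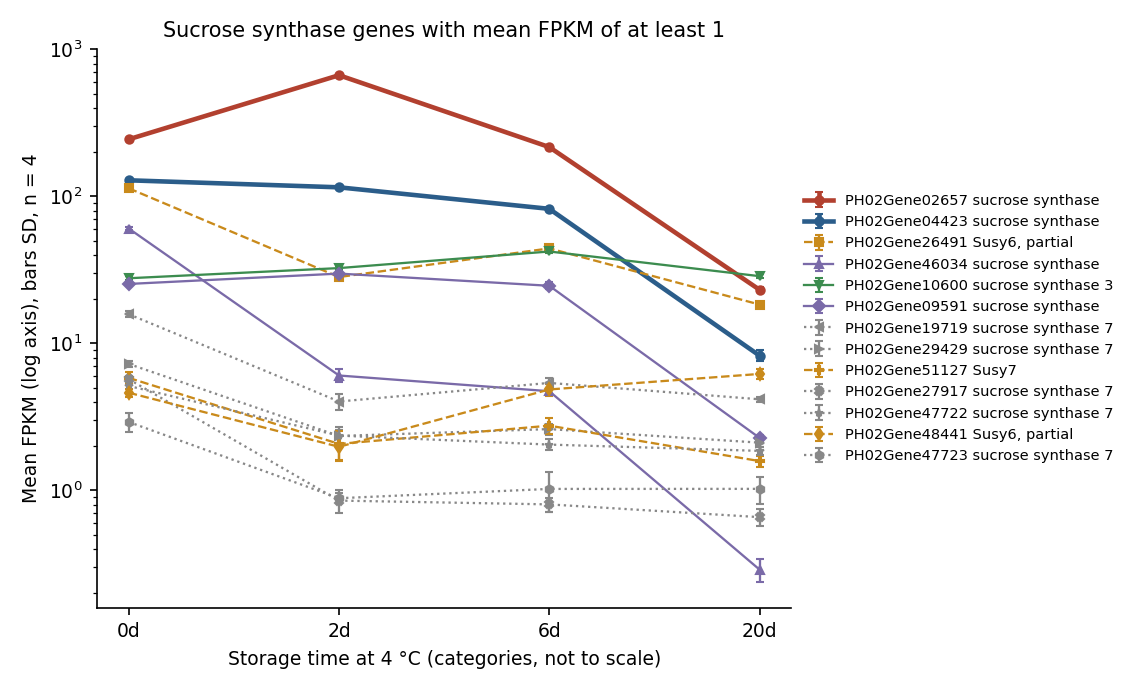
Mean FPKM (log axis, bars SD, n = 4) at each time of the 13 genes with the description or the KEGG entry of sucrose synthase and a mean FPKM of at least 1. Thick lines are PH02Gene02657 (red) and PH02Gene04423 (blue), thin solid lines the other genes described as sucrose synthase or sucrose synthase 3, dotted lines sucrose synthase 7 and dashed lines Susy6 and Susy7. PH02Gene02657 is the highest of these at 0d, 2d and 6d, and PH02Gene10600, at 28.7 FPKM, stands above it at 20d.

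Genes of the routes around sucrose synthase were counted in 15 lists built from the descriptions, the members left out. Of 429 such genes 214 were tested. At 2d 28 were called higher and 53 lower, 13.1% and 24.8% of the 214. At 6d 47 were called higher and 52 lower, 22.0% and 24.3%. At 20d 57 were called higher and 66 lower, 26.6% and 30.8%. Of all tested genes 13.1% were called higher and 18.1% lower at 2d, 16.8% and 21.6% at 6d, and 19.5% and 24.5% at 20d. The share of route genes called higher at 2d was thus that of all genes. Counts given for limma in these lists are on log2(FPKM + 1). Their median log2 change was -0.07, -0.11 and -0.09 at 2d, 6d and 20d, near that of all tested genes. Total-count scaling moved the median of all tested genes to -0.255 at 2d, -0.214 at 6d and -0.304 at 20d. It left 23.3% of the route calls higher at 2d and 34.4% at 20d, where TMM gave 34.6% and 46.3%. For all tested genes it left 28.5%, 33.6% and 31.0% of the calls higher at 2d, 6d and 20d, where TMM gave 42.0%, 43.7% and 44.3%.

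Genes for making sucrose were called higher late in storage. Sucrose-phosphate synthase joins UDP-glucose and fructose 6-phosphate, and a phosphatase then releases sucrose. Of 8 tested genes 3 were called higher at 6d and 6 at 20d, 37.5% and 75.0% beside 16.8% and 19.5% of all tested genes, with a median log2 change of 0.86 and 1.5. Limma on log2(FPKM + 1) called 1 at 6d and 4 at 20d. At 2d edgeR, DESeq2 and limma called 0, with 6 higher and 1 lower at an unadjusted p under 0.05. Their summed FPKM was 288 ± 1.002, 268 ± 6.56, 470 ± 5.39 and 868 ± 16.5 at 0d, 2d, 6d and 20d. Most of it came from the sucrose phosphate synthase gene PH02Gene37903, at 633 ± 12.7 FPKM at 20d and 201 ± 2.31 FPKM at 0d (log2 change 1.97, SE 0.02, edgeR adjusted p = 7.56e-30). It stood below PH02Gene02657, at 245 FPKM, at 0d and above it, at 23.2 FPKM, at 20d.

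Acid invertases hydrolyse sucrose in the wall and vacuole. Of 9 tested genes 6 were called lower and 1 higher at 2d, and 4 lower and 1 higher at 6d and again at 20d, with median log2 changes of -1.15, -0.64 and -0.69. The shares called lower were 66.7%, 44.4% and 44.4%, beside 18.1%, 21.6% and 24.5% of all tested genes. The 11.1% called higher at each time stood beside 13.1%, 16.8% and 19.5%. Their summed FPKM was 316 ± 10.97, 50.2 ± 1.69, 87.0 ± 5.64 and 182 ± 1.81 at 0d, 2d, 6d and 20d. The vacuolar invertase gene PH02Gene05689, of the highest mean, was at 99.1 ± 5.65, 5.65 ± 0.255, 16.2 ± 1.16 and 38.5 ± 0.722 FPKM. It was lowest at 2d, where PH02Gene02657 was highest. Its log2 change at 20d against 0d, -1.05, was at the limit and was no longer called without a filter on low values. The wall invertase gene PH02Gene16852 had 0 counts in all 20d libraries and 5.79 ± 0.718 FPKM at 0d, at least 216-fold lower at 20d against a floor of 3 fragments, or 12 counts, over the group, which covers counting error only.

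Neutral invertases act in the cytosol and organelles. Of 9 tested genes 2 were called higher and 1 lower at 2d, 5 higher at 6d and 4 higher at 20d, with median log2 changes of 0.08, 1.07 and 0.86. The shares called higher were 22.2%, 55.6% and 44.4%, beside 13.1%, 16.8% and 19.5% of all tested genes. At 2d the 11.1% called lower stood beside 18.1%. At 6d and 20d edgeR, DESeq2 and limma called 0 lower, and 0 were lower at an unadjusted p under 0.05. Total-count scaling left 3 called higher at 6d and 2 at 20d, and limma on log2(FPKM + 1) 2 and 1. PH02Gene08042 rose to 20.8 ± 0.512 FPKM at 20d, against 6.05 ± 0.383 FPKM at 0d (log2 change 2.10, SE 0.06). PH02Gene19699, of the highest mean, was not called, at 19.4 ± 0.707 FPKM at 20d and 17.9 ± 1.22 FPKM at 0d. Of 13 genes described as invertase inhibitors 0 reached a mean FPKM of 1, and none was tested.

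Fructokinases and hexokinases phosphorylate the fructose and glucose set free from sucrose. Of 11 tested genes 1 was called higher and 1 lower at 2d, 3 higher and 1 lower at 6d, and 5 higher and 2 lower at 20d, with median log2 changes of -0.06, 0.16 and 0.51. The shares called higher were 9.1%, 27.3% and 45.5%, beside 13.1%, 16.8% and 19.5% of all tested genes, and those called lower, 9.1%, 9.1% and 18.2%, lay below the 18.1%, 21.6% and 24.5% of all. The lower count at 20d was 1 when any of replicates 2 and 4 of 0d or 2 and 3 of 20d was left out, and total-count scaling left 3 called higher. Total-count scaling also gave 2 called lower at 2d and 2 at 6d, and limma on log2(FPKM + 1) left 2 called higher at 20d. Hexokinase-7 (PH02Gene45438) was at 5.02 ± 0.254, 38.5 ± 0.343, 39.2 ± 1.18 and 46.2 ± 0.693 FPKM at 0d, 2d, 6d and 20d, and rose in all 3 comparisons with 0d.

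UDP-glucose, the other product, can pass to pyrophosphorylases or be turned into other wall sugars. Of 3 tested UDP-glucose and UDP-sugar pyrophosphorylases edgeR, DESeq2 and limma called 0 against 0d, with 2 lower at an unadjusted p under 0.05 at each of 2d, 6d and 20d. PH02Gene24763, of the highest mean, was at 35.0 ± 1.09, 22.0 ± 0.404, 23.7 ± 0.224 and 24.2 ± 0.323 FPKM at 0d, 2d, 6d and 20d. Of 24 tested dehydrogenases, decarboxylases and epimerases of UDP-sugars 5 were called higher and 5 lower at 2d, 4 and 5 at 6d, and 9 and 5 at 20d, with median log2 changes of -0.37, 0.07 and 0.58. The 20.8% called lower at each time and the 16.7% called higher at 6d were near the shares of all tested genes. The 20.8% called higher at 2d and the 37.5% at 20d stood beside 13.1% and 19.5%. At 2d total-count scaling gave 1 higher and 8 lower. UDP-glucose 4-epimerase 1 (PH02Gene34943), which makes UDP-galactose, was at 110 ± 2.75, 1302 ± 14.6, 913 ± 5.30 and 629 ± 3.85 FPKM at 0d, 2d, 6d and 20d. Like PH02Gene02657 it was highest at 2d, but its log2 change at 20d against 0d was 2.83 (SE 0.02).

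Cellulose and callose synthases, which draw on UDP-glucose, were called lower more often than higher. Of 41 tested genes 18 were called lower at 2d, 19 lower and 4 higher at 6d, and 20 lower and 5 higher at 20d, with median log2 changes of -0.65, -0.76 and -0.94. The shares called lower were 43.9%, 46.3% and 48.8%, beside 18.1%, 21.6% and 24.5% of all tested genes. Those called higher, 0.0%, 9.8% and 12.2%, stood beside 13.1%, 16.8% and 19.5%. At 2d edgeR, DESeq2 and limma called 0 higher, with 6 higher at an unadjusted p under 0.05, and at 20d total-count scaling and limma left 2 higher. The summed FPKM was 1420 ± 6.26, 675 ± 7.04, 653 ± 19.01 and 691 ± 12.4 at 0d, 2d, 6d and 20d. The cellulose synthase BoCesA7 gene PH02Gene13967 was at 99.8 ± 2.55, 39.9 ± 0.476, 12.5 ± 0.461 and 4.8 ± 0.314 FPKM at these times, and fell in all 3 comparisons with 0d. PH02Gene08830, described as cellulose synthase A subunit 5 and of the highest mean, was at 123 ± 4.29 FPKM at 20d and 71.8 ± 1.43 FPKM at 0d. Its log2 change of 1.09 was called, but was 0.76 under total-count scaling and in limma on log2(FPKM + 1), 0.95 under upper-quartile scaling and 0.96 with a mean FPKM of at least 5, and was not called in any of these.

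**Figure D4:**
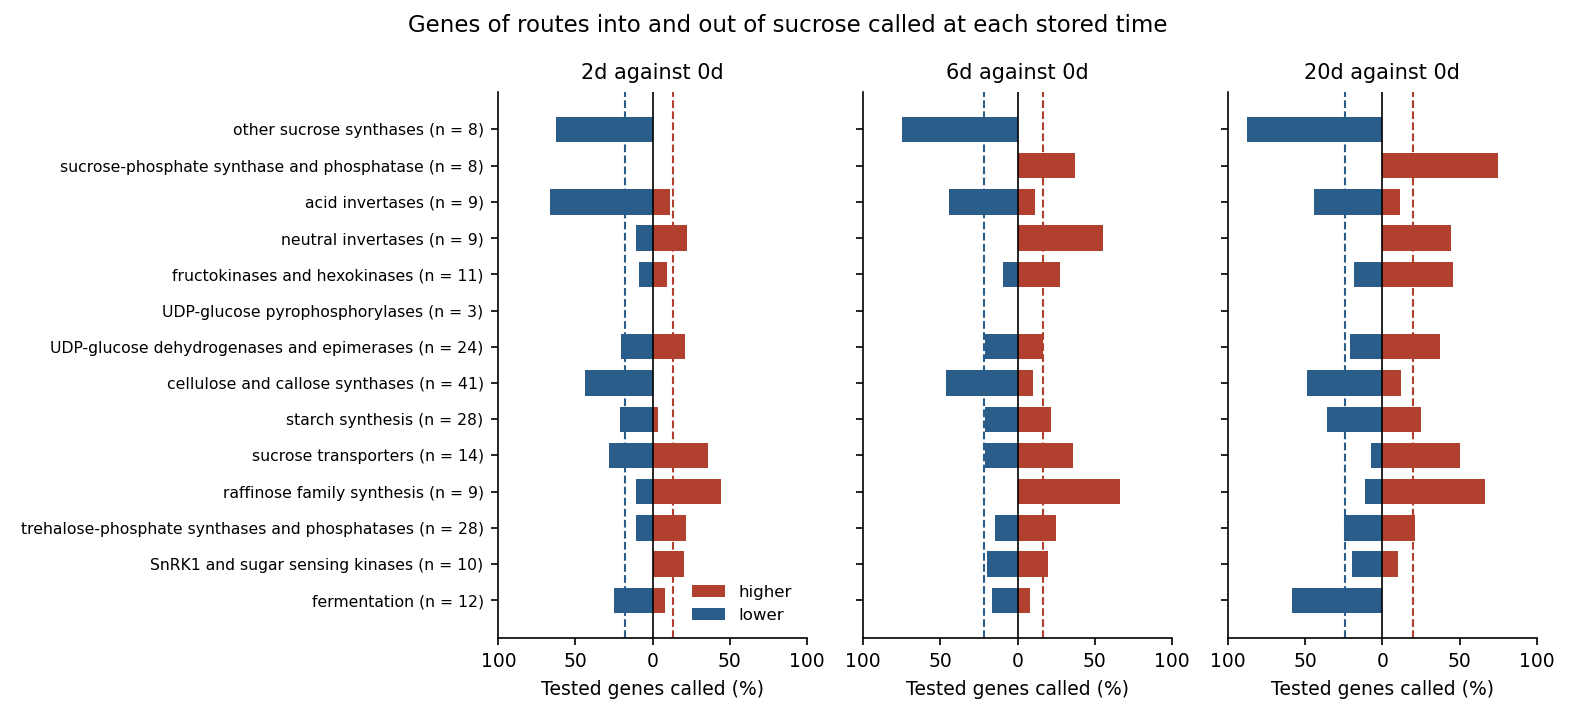
Percent of the tested genes of each list called higher (red, to the right) and lower (blue, to the left) at 2d, 6d and 20d against 0d, with the number tested in brackets. Dashed lines mark the percent of all 24944 tested genes called in each direction. The other sucrose synthases lie on the lower side at all 3 times, and sucrose-phosphate synthase and phosphatase on the higher side at 6d and 20d.

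Starch is another store fed by sucrose. Of 28 tested genes of its synthesis 1 was called higher and 6 lower at 2d, 6 higher and 6 lower at 6d, and 7 higher and 10 lower at 20d, with median log2 changes of 0.11, -0.23 and -0.64. At 2d total-count scaling and limma called 0 higher, with 13 higher at an unadjusted p under 0.05 in edgeR. The shares called higher were 3.6%, 21.4% and 25.0% and those called lower 21.4%, 21.4% and 35.7%, beside 13.1%, 16.8% and 19.5% higher and 18.1%, 21.6% and 24.5% lower of all tested genes. The lower share was thus near that of all genes at 2d and 6d. Soluble starch synthase III (PH02Gene33176) was at 192 ± 4.47, 54.2 ± 0.915, 35.5 ± 2.36 and 40.2 ± 0.658 FPKM at 0d, 2d, 6d and 20d, and fell in all 3 comparisons with 0d. A large subunit of glucose-1-phosphate adenylyltransferase (PH02Gene44838), the enzyme that makes ADP-glucose, rose to 65.1 ± 1.24 FPKM at 20d, against 2.204 ± 0.222 FPKM at 0d (log2 change 5.20, SE 0.06).

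Sucrose and sugar transporters and genes of the raffinose family were more often called higher at 20d. Of 14 tested transporters 5 were called higher and 4 lower at 2d, 5 higher and 3 lower at 6d, and 7 higher and 1 lower at 20d, with median log2 changes of 0.07, -0.28 and 1.18. The 35.7% of the transporters called higher at 2d and again at 6d stood beside 13.1% and 16.8% of all tested genes. The 28.6% called lower at 2d stood beside 18.1%, and the 21.4% called lower at 6d was near the 21.6% of all. At 20d 7 of the 14 were called higher, beside 19.5% of all tested genes, and the 7.1% called lower stood beside 24.5%. Total-count scaling gave 5 lower at 6d and 2 lower at 20d. SWEET6b (PH02Gene28963) rose to 81.9 ± 1.198 FPKM at 20d, against 2.23 ± 0.267 FPKM at 0d. SWEET4a (PH02Gene37155), of the highest mean, was not called, at 69.6 ± 0.965 FPKM at 20d and 82.6 ± 1.95 FPKM at 0d. Raffinose synthesis attaches galactose to sucrose, and of 9 tested genes 4 were called higher and 1 lower at 2d, 6 higher at 6d, and 6 higher and 1 lower at 20d, with median log2 changes of 0.91, 1.84 and 1.59. At 6d edgeR, DESeq2 and limma called 0 lower, with 0 lower at an unadjusted p under 0.05. The 44.4%, 66.7% and 66.7% called higher at 2d, 6d and 20d stood beside 13.1%, 16.8% and 19.5% of all tested genes. The 11.1%, 0.0% and 11.1% called lower stood beside 18.1%, 21.6% and 24.5%. Limma on log2(FPKM + 1) called 2, 5 and 3 of the 9 higher at 2d, 6d and 20d. A galactinol-sucrose galactosyltransferase 6 gene (PH02Gene11640) was at 9.38 ± 0.530, 112 ± 2.14, 86.1 ± 1.70 and 52.2 ± 1.34 FPKM at 0d, 2d, 6d and 20d, with its highest level at 2d, as for PH02Gene02657.

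Trehalose phosphate is a sugar signal made from UDP-glucose. Of 28 tested genes of its synthesis and removal 6 were called higher and 3 lower at 2d, 7 higher and 4 lower at 6d, and 6 higher and 7 lower at 20d, with median log2 changes of 0.40, 0.04 and 0.12. At 2d 21.4% were called higher and 10.7% lower, beside 13.1% and 18.1% of all tested genes. At 6d 25.0% and 14.3% stood beside 16.8% and 21.6%. The 21.4% higher and 25.0% lower at 20d were near the 19.5% and 24.5% of all tested genes. Under total-count scaling 12 were called lower at 20d, and limma on log2(FPKM + 1) called 3 higher and 12 lower. A trehalose-phosphate synthase gene (PH02Gene21236) was at 64.3 ± 0.842, 254 ± 5.18, 144 ± 5.11 and 138 ± 2.45 FPKM at 0d, 2d, 6d and 20d, and rose in all 3 comparisons with 0d. Of 10 tested subunits of SnRK1, an energy-sensing kinase, 2 were called higher at 2d, 2 higher and 2 lower at 6d, and 1 higher and 2 lower at 20d, with median log2 changes of 0.61, 0.19 and -0.19. The shares called higher, 20.0%, 20.0% and 10.0%, stood beside 13.1%, 16.8% and 19.5% of all tested genes. Those called lower, 0.0%, 20.0% and 20.0%, stood beside 18.1%, 21.6% and 24.5%. At 2d edgeR and DESeq2 called 0 lower, with 2 lower at an unadjusted p under 0.05, while limma and total-count scaling each called 1 higher and 1 lower. Total-count scaling left 1 higher at 6d. The beta-1 subunit gene PH02Gene02379 fell to 132 ± 1.84 FPKM at 20d, against 393 ± 6.59 FPKM at 0d.

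Genes of fermentation, a pathway of low oxygen, were called lower more often than higher at 20d. Of 12 tested genes 1 was called higher and 3 lower at 2d, 1 higher and 2 lower at 6d, and 7 lower at 20d, with median log2 changes of -0.25, -0.49 and -1.60. The 25.0%, 16.7% and 58.3% called lower at 2d, 6d and 20d stood beside 18.1%, 21.6% and 24.5% of all tested genes. The 8.3%, 8.3% and 0.0% called higher stood beside 13.1%, 16.8% and 19.5%. Total-count scaling called 0 higher at 2d and 6d, as did limma, with 5 and 2 higher at an unadjusted p under 0.05 in edgeR. In edgeR, DESeq2 and limma 0 were called higher at 20d, with 2 higher at an unadjusted p under 0.05. The list also holds class-3 alcohol dehydrogenases, known for acting on formaldehyde. Alcohol dehydrogenase 1 (PH02Gene33378), of the highest mean, was at 141 ± 1.13, 133 ± 1.97, 75.7 ± 1.30 and 36.7 ± 1.07 FPKM at 0d, 2d, 6d and 20d, and fell at 20d against 0d by 1.63 on the log2 scale. It did not share the 2d peak of PH02Gene02657.

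Because sucrose synthase is known from phloem, vascular markers are set beside the members. Of 6 genes described as phloem protein 2-like or xylem cysteine proteinase, 2 were tested, both of the phloem protein 2-like kind. Both were called higher at 6d and at 20d against 0d, beside 16.8% and 19.5% of all tested genes. At 6d limma on log2(FPKM + 1) called 0 higher and total-count scaling 1. PH02Gene28253 reached a mean FPKM of 1 only through its 20d level, so that the filter favours its call at 20d, and its calls are a description. The summed FPKM of the 6 genes ran from 7.55 to 10.0, 8.66 to 9.62, 13.4 to 13.9 and 22.5 to 25.4 at 0d, 2d, 6d and 20d. The 2 tested genes carried this sum, PH02Gene20975, at 21.1 ± 1.45 FPKM at 20d and 5.85 ± 0.272 FPKM at 0d, and PH02Gene28253, at a mean of 2.54 FPKM at 20d and 0.701 FPKM at 0d. The other 4 did not share this course. PH02Gene31753, also phloem protein 2-like, averaged 0.323 FPKM at 20d and 0.647 FPKM at 0d, and PH02Gene13421, of the same kind, was at 0 in all libraries. The xylem gene PH02Gene20438 averaged 1.06, 1.33, 0.80 and 0.610 FPKM at 0d, 2d, 6d and 20d. The xylem gene PH02Gene22838 was at 0 in all libraries of 20d and in 2 libraries of 0d. Of the 6 genes 2 were thus highest at 20d, where both members were lowest, and both xylem genes were lowest there. The part of tissue makeup in the members' levels was not tested.

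The genes whose level followed each member most closely were found by Pearson's r of log2(FPKM + 1) over the 16 libraries, among 8127 genes of mean FPKM 10 or more and an informative description. The libraries fall into 4 groups of 4, so that r mostly compares 4 time points and is a description. Most like PH02Gene02657 were an aminodeoxychorismate synthase gene of folate synthesis (PH02Gene48367, r = 0.998) and an anthranilate synthase beta subunit gene of tryptophan synthesis (PH02Gene16376, r = 0.998). Next came a 1-aminocyclopropane-1-carboxylate oxidase gene (PH02Gene22087, r = 0.996), whose enzyme makes ethylene, the SnRK1 gamma-1 subunit gene (PH02Gene28307, r = 0.996) and a hydroxymethylglutaryl-CoA synthase gene of the mevalonate route (PH02Gene21584, r = 0.995). All 5 were highest at 2d and lowest at 20d. The oxidase gene was at 33.7 ± 2.23, 122 ± 1.23, 38.2 ± 2.98 and 0.672 ± 0.101 FPKM at 0d, 2d, 6d and 20d, a wider span than that of PH02Gene02657. The SnRK1 gene spanned less, at 330.0 ± 3.02, 489 ± 6.42, 349 ± 3.11 and 159 ± 1.21 FPKM.

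Most like PH02Gene04423 were genes of lactoylglutathione lyase (PH02Gene12245, r = 0.999), which detoxifies methylglyoxal, and importin alpha-1a (PH02Gene08817, r = 0.998), a nuclear import receptor. Granule-bound starch synthase 1b (PH02Gene37359, r = 0.998), which makes amylose, the APG-like transcription factor gene PH02Gene42446 (r = 0.998) and the 60S ribosomal protein L19-3 gene PH02Gene43828 (r = 0.998) followed. The starch synthase gene was at 46.0 ± 0.83, 41.8 ± 1.27, 34.1 ± 1.17 and 4.22 ± 0.481 FPKM at 0d, 2d, 6d and 20d. Between the 2 members r was 0.942, and 0.993 over the 12 libraries without 2d. With the 2d libraries in, 394 genes were more like PH02Gene02657, and 614 more like PH02Gene04423, than the other member was. On TMM-scaled log2 counts 2 of the 5 genes named for each member were again among its closest 5.

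**Figure D5:**
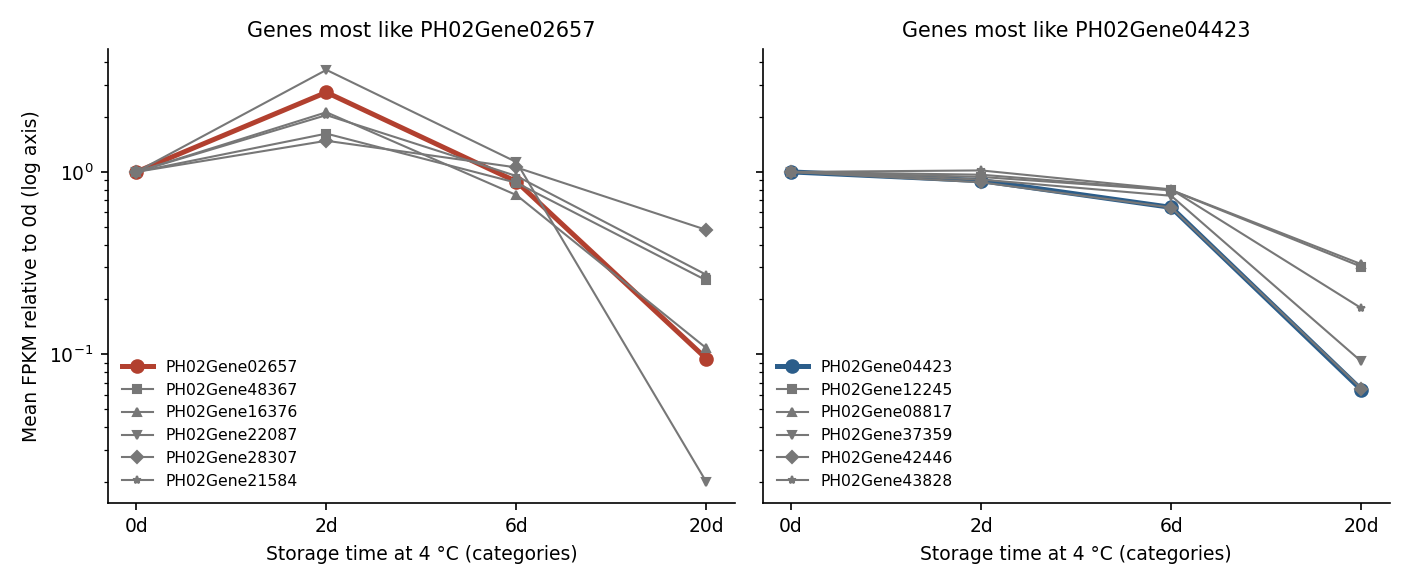
Mean FPKM of PH02Gene02657 (red, left) and PH02Gene04423 (blue, right), each with the 5 genes of highest Pearson's r with it (grey), relative to the mean at 0d on a log axis. The genes on the left are highest at 2d, and those on the right are near or below their 0d level at 2d and 6d. All are lowest at 20d.

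The nearest genes on the scaffolds were no copies of the members. PH02Gene02657 lies 20376 bases from an ethylene-responsive transcription factor 1 gene (PH02Gene02658) and 27845 bases from a phosphoinositide phosphatase SAC3-like gene (PH02Gene02656). PH02Gene02658 was at 519 FPKM at 2d and 617 FPKM at 0d, and PH02Gene02656 at 23.1 FPKM at 2d and 23.5 FPKM at 0d, so that neither showed the 2d peak in FPKM. PH02Gene04423 lies 52663 bases from a 40S ribosomal protein Sa-2-like gene (PH02Gene04424), which was at 4.73 FPKM at 20d and 43.4 FPKM at 0d. On its other side, 24852 bases away, PH02Gene04422, a hypothetical protein, was at 5.93 FPKM at 20d and 3.13 FPKM at 0d.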

How the data were processed

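Total RNA of 16 libraries (Illumina NovaSeq, per the labels' protocols), 4 at each of 4 storage times, was deposited by the authors as FPKM and as estimated counts per gene, per the file headers. No source used here gives the aligner, the counting tool or the genome build. An FPKM of 0.0001 stands for 0 and was read as 0. Of the deposited counts from 1 to 19, 35.2% were multiples of 4. On this ground 1 fragment was taken as 4 counts for counting errors and floors, an assumption that this share does not establish.

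Rounded counts of 24944 genes (mean FPKM 1 or more) were fitted with edgeR 4.0.16 (R 4.3.3; TMM, quasi-likelihood, all libraries, no covariates), with Benjamini-Hochberg adjusted p below 0.05 and an absolute log2 change of at least 1 as the call. The fit was also run on simulated data in which few genes changed, and only at 2d. Such data cannot test the scaling where many genes differ, as here. DESeq2 1.42.0, limma 3.58.1 on log2(FPKM + 1) and log2(FPKM + 5), total-count and upper-quartile scaling, other filters, a replicate block and leaving out each library were the alternatives. Tables and figures used Python 3.11.15 and pandas 2.3.3.

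Lists are patterns on the descriptions, and 0 genes are in more than 1 list. Named besides the members are every tested gene described as sucrose synthase, in each list the gene of the highest mean FPKM and the called gene of the smallest adjusted p at 20d against 0d, and the 5 genes most like each member. The members and lists were chosen with earlier results of these data known. Over 24 pairs of replicates chi-square per gene was 1.5 to 2.42, so that no pair differed by less than the sampling noise. Of 24 pairs with the same replicate number in different groups 5 had a correlation of deviations over 0.1 (range -0.241 to 0.127), so that the numbers were not taken as pairs.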

Additional observations from a re-analysis of the deposited data

Results flagged for a closer look

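In 188 groups of 4 libraries, 9 had a library set apart from the other 3 by Dixon's 95% limit, where chance flags about 1 in 20 groups, and neither PH02Gene02657 nor PH02Gene04423 had one. PH02Gene27917 (sucrose synthase 7) was highest at 6d in replicate 1, at 0.937 FPKM, with the others between 0.739 and 0.768. PH02Gene46034, with the members' description, was lowest at 6d in replicate 4, at 4.44 FPKM, with the others between 4.81 and 4.82. The epimerase gene PH02Gene34943 was lowest at 6d in replicate 1, at 905 FPKM. SWEET6b (PH02Gene28963) was highest at 0d in replicate 1, at 2.63 FPKM. Of the genes most like PH02Gene02657, PH02Gene28307 was highest at 6d in replicate 1, at 353.9 FPKM. Of those most like PH02Gene04423, PH02Gene12245 was lowest at 6d in replicate 4, at 524 FPKM, and PH02Gene37359 was lowest at 0d in replicate 1, at 44.8 FPKM. PH02Gene43828 was lowest at 0d in replicate 4, at 197 FPKM, and at 6d in replicate 3, at 164 FPKM.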

How the results depend on the processing

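The 2d peak of PH02Gene02657 and the low 20d level of both members kept their direction in every alternative run, and leaving out any single library moved no count over all genes, over the routes or over the other sucrose synthases by more than 1.5 times. Values follow in the order 2d, 6d and 20d against 0d, then 6d against 2d and 20d against 6d. The log2 differences of PH02Gene02657 were 1.45, -0.19, -3.41, -1.64 and -3.22 under total-count scaling, 1.44, -0.18, -3.35, -1.62 and -3.17 in limma on log2(FPKM + 1), and 1.43, -0.17, -3.15, -1.60 and -2.98 with log2(FPKM + 5). Those of PH02Gene04423 were -0.16, -0.66, -3.97, -0.50 and -3.31 under total-count scaling, -0.16, -0.64 and -3.81 and, at 6d against 2d, -0.48 in limma with 1, and -0.15, -0.62, -3.34, -0.46 and -2.72 with 5. Against 0d, upper-quartile scaling gave 1.61, -0.09 and -3.23 (-3.14 at 20d against 6d) for PH02Gene02657 and 0.00, -0.56 and -3.79 for PH02Gene04423. A mean FPKM of at least 5 gave 1.58, -0.13 and -3.22 for PH02Gene02657 and -0.03, -0.60 and -3.78 for PH02Gene04423, and no filter gave 1.77, 0.07 and -3.03 for PH02Gene02657 and 0.16 and -0.40 for PH02Gene04423 at 2d and 6d. DESeq2 gave 1.69 for PH02Gene02657 at 2d. The direction of PH02Gene04423 at 2d and of PH02Gene02657 at 6d thus depends on the scaling and filter, and the cause was not tested beyond that.

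Counts over all genes changed with the filter and the pseudocount. With a mean FPKM of at least 5, where fewer genes are tested, 1801, 2312, 2867, 756 and 1664 were called higher and 2121, 2820, 3370, 1101 and 1785 lower. With log2(FPKM + 5) in limma 849, 1261, 1778, 299 and 904 were called higher and 1958, 2547, 3443, 367 and 955 lower. With log2(FPKM + 1) 1648, 2534, 2927, 1033 and 1890 were called higher, and 929 lower at 6d against 2d. With no filter 7231, 8153 and 9543 were called lower against 0d, 2893 higher at 6d against 2d and 5505 lower at 20d against 6d. In the main edgeR fit 34 of 214 route genes were called higher and 14 lower at 6d against 2d. These 15.9% and 6.5% stood beside 6.94% and 8.14% of all tested genes. At 20d against 6d 35 were called higher and 35 lower, 16.4% each, beside 12.7% and 14.2%. Other filters change the number of route genes tested, which is not given, so that their counts are not shares. Of the route genes, limma with 1 called 14 higher at 2d against 0d, and 20 higher and 7 lower at 6d against 2d. Limma with 5 called 10, 18, 32, 5 and 18 higher, and 33 lower at 2d against 0d, 3 at 6d against 2d and 17 at 20d against 6d. A mean FPKM of at least 5 left 18 higher and 34 lower at 2d and 29 higher at 6d against 0d, 13 higher at 6d against 2d and 23 lower at 20d against 6d, and no filter gave 22 lower at 6d against 2d and 57 lower at 20d against 6d. Of the other sucrose synthases, limma with 5 called 2, 2 and 3 lower against 0d and 1 lower at 20d against 6d, a mean FPKM of at least 5, which leaves 4 of them tested, gave 2, 2 and 3 (PH02Gene46034 and PH02Gene19719, which reach it only through 0d, and at 20d also PH02Gene09591), and with no filter 1 was called higher at 20d against 6d. The main edgeR fit called 0 of the 8 higher and 2 lower at 20d against 6d. These 0.0% and 25.0% stood beside 12.7% and 14.2% of all tested genes. The cause of the limma differences was not tested.

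From deposited counts in place of FPKM, which weights long genes more, both members held 69.1%, 88.9%, 74.8% and 40.0% at 0d, 2d, 6d and 20d, and their ratio was 1.67, 5.08, 2.31 and 2.48. Among genes with the KEGG entry, an alternative chosen after seeing the data, both held 57.4%, 87.4%, 68.4% and 31.6%, and with only genes of a mean FPKM of at least 1 they held 71.3% at 0d. Leaving class-3 alcohol dehydrogenases and other strays out of the lists, also chosen after seeing the data, changed no count by more than 1.5 times. With the replicate number as a block, 3249 genes were called higher and 4509 lower at 2d against 0d, and no count over all genes, the routes or the other sucrose synthases moved by more than 1.5 times. Own-numbered libraries correlated best in 8 of 48 comparisons, so that the numbers gave no sign of pairing. Counting error was largest at 20d, where the members' own levels were lowest, at 3.08% and 4.85% for PH02Gene02657 and PH02Gene04423. The measured coefficients of variation there were 3.88% and 8.75%, above those of counting.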
